A study of Homo sapiens with 12 samples.

Results

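The comparison described here set 4 arrays of glioblastoma cells given 100 nM FICZ for 24 h against 4 arrays of the same cells given the solvent DMSO. These were 8 of the 12 arrays of the series, and the other 4 held cells given 50 µM kynurenic acid (KynA). All arrays came from U-87MG, an established human glioblastoma cell line, made stable for a control shRNA (shCtrl) by lentivirus, so every group carried that vector. Genes were taken from the transcript clusters that the platform annotation pairs with exactly 1 symbol, which were 13577 of the 15759 clusters in the table and stood for 13530 genes. Of these, 10807 genes passed the filter on low signal (above the 25th percentile of the array in at least 4 of the 12 arrays) and were tested. The model was a tumour cell line in culture with no host tissue. The labels call the 4 arrays of a group biological replicates without saying that their cultures or days were separate. The p-values therefore rest on the spread between the deposited arrays, part of which may be technical.

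FICZ (6-formylindolo[3,2-b]carbazole) is formed from tryptophan under light and is a high-affinity ligand of the aryl hydrocarbon receptor (AHR). Without ligand, AHR waits in the cytoplasm in a chaperone complex. With ligand it moves into the nucleus, pairs with ARNT and binds DNA at xenobiotic response elements with a GCGTG core. Enzymes that break down its ligands and repressors that shut the receptor off are among its best-known targets, and in glioblastoma AHR is studied as a receptor for tryptophan metabolites.

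Array medians lay between 8.30 and 8.33 on the log2 scale. The array FICZ 4 stood apart from the rest, with the lowest array weight of the 12 arrays (0.551) and a first principal component score of 24.2, the highest of all. In the called rises the most extreme FICZ array was FICZ 1 for 16 genes, FICZ 2 for 15, FICZ 3 for 17 and FICZ 4 for 17. Among the called falls FICZ 4 was the most extreme for 12 of 27. All 12 tested markers of U-87MG, among them vimentin (VIM), fibronectin (FN1) and annexin A1 (ANXA1), lay above the filter in all 8 arrays. Of the markers of other cell types in the table, those above the filter in all 8 arrays were 3 of 6 myeloid (CSF1R, AIF1 and PTPRC), 3 of 6 endothelial (ENG, KDR and TIE1), 2 of 4 oligodendrocyte (CNP and MOBP), 2 of 6 neuron (SNAP25 and SYP) and 3 of 6 astrocyte and progenitor markers (SLC1A3, NES and GFAP). TYROBP (myeloid cells), TEK (endothelium), MAG (oligodendrocytes) and SLC17A7 (excitatory neurons) were above it in 0 of the 8.

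RefSeq promoter windows (build GRCh38.p14) are shown for 4 of the largest rises, picked because they hold the AHR core motif. Of the 15 largest rises, MIR155HG and THBS1 also hold it, while the windows of IL1B, KIAA1211L and IGFBP4 do not. No window was available for SLC16A6, NPTX1, CYP1B1, MMP1, ALMS1P and CCL2. TIPARP and AHRR are textbook AHR targets, and SECTM1 and STC2 are the largest rises outside that pair whose window holds more than 1 copy. Capitals mark GCGTG, or CACGC where the motif lies on the opposite strand, and every sequence is written along the strand of its gene. The window of TIPARP lies at chr3:156674340-156674639 (+), AHRR at chr5:321464-321763 (+), SECTM1 at chr17:82333717-82334016 (−) and STC2 at chr5:173328365-173328664 (−). Those of TIPARP, AHRR and STC2 lie mostly upstream of the start of the gene. That of SECTM1 lies mostly inside the gene, which starts at 82333959 on the minus strand, as do its marked motifs.
TIPARP: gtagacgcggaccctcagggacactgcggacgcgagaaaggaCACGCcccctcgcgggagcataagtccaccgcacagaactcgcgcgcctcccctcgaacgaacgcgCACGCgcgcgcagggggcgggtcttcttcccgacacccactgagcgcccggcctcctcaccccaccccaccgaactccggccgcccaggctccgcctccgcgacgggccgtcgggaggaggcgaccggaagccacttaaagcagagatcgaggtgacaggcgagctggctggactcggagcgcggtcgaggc
AHRR: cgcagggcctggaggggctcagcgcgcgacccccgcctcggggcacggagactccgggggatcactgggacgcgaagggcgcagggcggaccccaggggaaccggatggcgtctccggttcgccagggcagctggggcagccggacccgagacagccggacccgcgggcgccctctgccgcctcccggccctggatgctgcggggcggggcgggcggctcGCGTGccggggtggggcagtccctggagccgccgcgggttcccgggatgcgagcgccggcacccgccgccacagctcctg
SECTM1: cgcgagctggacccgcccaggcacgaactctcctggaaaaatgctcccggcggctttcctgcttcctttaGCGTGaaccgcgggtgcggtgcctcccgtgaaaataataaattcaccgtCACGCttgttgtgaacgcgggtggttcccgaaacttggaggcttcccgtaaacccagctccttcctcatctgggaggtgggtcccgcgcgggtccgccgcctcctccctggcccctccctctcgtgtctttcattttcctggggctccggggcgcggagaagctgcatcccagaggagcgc
STC2: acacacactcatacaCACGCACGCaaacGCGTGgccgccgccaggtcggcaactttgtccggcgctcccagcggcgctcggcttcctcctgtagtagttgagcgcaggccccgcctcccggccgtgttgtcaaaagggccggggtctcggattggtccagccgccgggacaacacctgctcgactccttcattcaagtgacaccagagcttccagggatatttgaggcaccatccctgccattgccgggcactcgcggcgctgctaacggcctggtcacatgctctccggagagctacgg

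The 5 letters GCGTG, searched on both strands, are common. They occurred in 36.3% of all 27305 promoter windows in the table and in 50.1% of the 8841 windows of genes tested. Among genes called higher with FICZ, 49 of 65 had a window and 23 of those held the letters (46.9%). Among genes called lower it was 13 of 23 (56.5%). The longer form TNGCGTG, which contains the shorter one, occurred in 7.16% of windows of genes tested, in 6 of the 49 windows of genes called higher (12.2%) and in 0 of the 23 windows of genes called lower. A match describes these windows only and is not a binding site.

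Few genes changed by much with FICZ, and the large called changes were rises. Differences below are FICZ minus DMSO in log2 signal, ± SE with n = 4 arrays per group, from limma with adjustment over all 10807 genes, and a gene was called at an adjusted p under 0.05. Of the genes tested, 92 were called (0.851%), 65 higher (0.601%) and 27 lower (0.25%). All 11 called genes that changed at least 2-fold rose, and 3 of them, SLC16A6, NPTX1 and IL1B, rose at least 4-fold. At 1.5-fold or more there were 38 called rises and 5 called falls. The median called rise was 0.63 and the smallest 0.33, while the median called fall was -0.50 and the smallest -0.36. Without adjustment the balance ran the other way, since 637 genes were higher and 935 lower at p under 0.05, and the median over all genes tested was -0.031. In all 92 called genes the 4 FICZ arrays and the 4 DMSO arrays did not overlap, which held for 849 of all genes tested (7.86%). Leaving out 1 array changed the count by over 1.5 times for 6 of the arrays, to 42 without DMSO 1 or FICZ 4, 44 without DMSO 3 or FICZ 2, 49 without DMSO 4 and 57 without DMSO 2, and 34 genes were called in all 12 fits that left out 1 array. Counts out of 12 below include 4 fits that left out a KynA array, which enters the spread but not the difference.

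**Figure D1:**
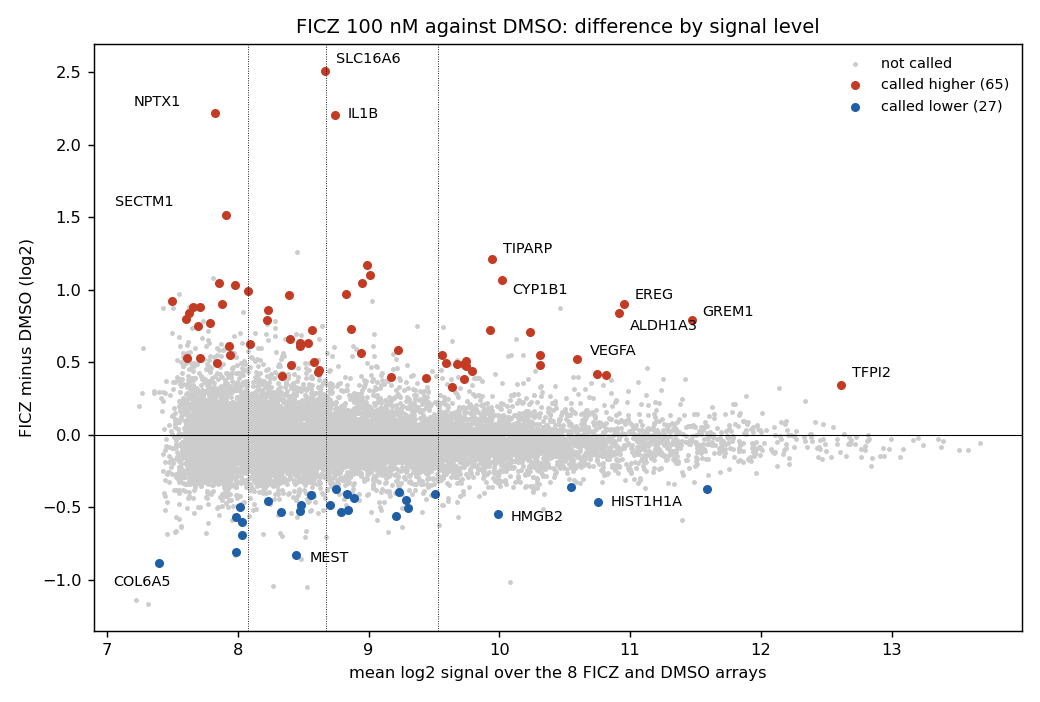
Each point is a tested gene, placed by its mean log2 signal over the 8 arrays (horizontal axis) and by FICZ minus DMSO in log2 (vertical axis), with the 65 called rises in red, the 27 called falls in blue and dotted lines at the quartile limits of signal. The rises reach 2.51 and spread over the whole range of signal, while no called fall passes -0.88.

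In the AHR battery, 2 feedback repressors and 1 enzyme rose. TIPARP, a mono-ADP-ribosyltransferase that represses AHR, had log2 signals of 9.18, 9.20, 9.53 and 9.46 in DMSO arrays 1 to 4 and 10.55, 10.29, 10.86 and 10.52 in FICZ arrays 1 to 4, a rise of 1.21 ± 0.135 (adjusted p = 0.000659). CYP1B1, a cytochrome P450 that oxidises polycyclic compounds and oestradiol, went from 9.44, 9.13, 9.58 and 9.81 to 10.52, 10.26, 10.80 and 10.63, a rise of 1.07 ± 0.165 (adjusted p = 0.00629). AHRR, a repressor that competes with AHR for ARNT, went from 8.30, 8.09, 8.52 and 8.47 to 9.30, 9.25, 9.35 and 9.35, a rise of 0.97 ± 0.147 (adjusted p = 0.00565). The lowest FICZ array lay above the highest DMSO array in all 3, and the FICZ values of AHRR lay between 9.25 and 9.35. Of the 8 battery genes tested, of 11 listed, 3 were called higher and 0 lower, and their median was 0.29 against -0.031 over all genes. NQO1, a quinone reductase, differed by 0.09 ± 0.13 (adjusted p = 0.783) and ALDH3A1, an aldehyde dehydrogenase, by -0.11 ± 0.142 (adjusted p = 0.753), both with overlapping groups. CYP1A1, the most used AHR target, is not analysed here because no single-symbol cluster carries it.

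The receptor itself showed no call. AHR differed by -0.10 ± 0.0758 (adjusted p = 0.586) and its partner ARNT by 0.14 ± 0.0902 (adjusted p = 0.508). Of 13 tested genes of the receptor complex, chaperones and coactivators, 0 were called by limma (0 also at an unadjusted p under 0.05, which 14.5% of all genes reached), and they ranged from -0.14 to 0.14 with a median of -0.035. PTGES3, the p23 co-chaperone, differed by -0.10 ± 0.0751 and the acetyltransferase CREBBP by -0.14 ± 0.0778. Other genes known to respond to AHR ligands in other cells gave 8 called rises and 0 called falls among 17 tested, with a median of 0.26. Several of those 8, such as IL1B, THBS1, STC2 and GREM1, were already known to rise in these arrays when the list was drawn up, so its count is no independent evidence of direction.

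SLC16A6 led the ranking; it belongs to the family that carries lactate, ketone bodies and other monocarboxylates. Its log2 signals were 6.98, 7.36, 7.68 and 7.64 with DMSO and 9.91, 9.86, 9.94 and 9.99 with FICZ, a rise of 2.51 ± 0.139 or 5.7-fold (adjusted p = 3.81e-07). The FICZ arrays were almost level with each other, and none of the DMSO arrays reached the filter. Among 13 tested carriers for monocarboxylates and amino acids it was the only call. SLC16A4 differed by 0.35 ± 0.159 (adjusted p = 0.333), SLC16A7 by 0.27 ± 0.114 (adjusted p = 0.3) and SLC7A5, a light chain of the large neutral amino acid transporter, by 0.31 ± 0.0978 (adjusted p = 0.162).

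NPTX1, a secreted pentraxin of excitatory synapses, read 6.56, 6.27, 7.03 and 7.02 with DMSO and 9.26, 8.68, 8.92 and 8.88 with FICZ, a rise of 2.22 ± 0.227 (adjusted p = 0.000413). SECTM1, a secreted and transmembrane ligand of CD7 on T and natural killer cells, read 7.14, 6.91, 7.11 and 7.45 and then 8.47, 8.60, 8.87 and 8.74, a rise of 1.52 ± 0.144 (adjusted p = 0.000231). Both genes lay below the filter in every DMSO array and above it in every FICZ array. Of the 65 called rises, 15 had no DMSO array above the filter. Among those, 6 also had no KynA array above it, and so passed through their FICZ arrays alone and were bound to differ. NPTX1, SECTM1 and, described below, CCL2 and MMP1 had 3 KynA arrays above it, short of the 4 arrays asked. They too were tested only because of their FICZ arrays, so their p-values are no independent evidence of a rise.

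Transcripts of the inflammatory mediators IL1B and CCL2 rose. IL1B, which encodes interleukin 1 beta, had log2 signals of 7.53, 8.24, 7.36 and 7.43 with DMSO and 9.98, 10.44, 9.43 and 9.53 with FICZ, a rise of 2.20 ± 0.256 (adjusted p = 0.000949). Array number 2 was highest in both groups and the groups did not overlap. CCL2, the chemokine that draws monocytes, read 7.47, 6.68, 7.07 and 6.92 with DMSO and 8.12, 7.82, 8.02 and 7.89 with FICZ, a rise of 0.93 ± 0.147 (adjusted p = 0.0078). CSF3, the granulocyte colony-stimulating factor, read 10.30, 10.48, 9.65 and 9.68 and then 10.74, 11.45, 10.67 and 10.74, a difference of 0.87 ± 0.233 that was not called (adjusted p = 0.105), with FICZ 2 far above the other FICZ arrays. Of 9 tested interleukins and chemokines, of 23 listed, 2 were called higher and 0 lower, with a median of 0.36. None of 12 tested NF-kB subunits and feedback genes was called, and ICAM1 (0.48 ± 0.118, adjusted p = 0.0843), BCL3 (0.42 ± 0.143), NFKBIA (0.17 ± 0.0925) and TNFAIP2 (-0.40 ± 0.0999) had both signs. At an unadjusted p under 0.05 that list held 3 genes, which limma did not call. Of 5 tested myeloid markers TMEM119, chosen after its values were seen, was called higher (0.63 ± 0.124, adjusted p = 0.032). The summed log2 signal of the 5 ran from 38.9 to 41.4 in DMSO arrays and from 40.3 to 43.2 in FICZ arrays. TMEM119 was called in 7 of 12 fits with an array left out (0.105 without DMSO 3 at most), and in 3 of the 8 that left out a DMSO or FICZ array. Its part in the cytokine values was not tested.

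MIR155HG, the transcript that gives rise to miR-155, read 8.58, 8.30, 8.69 and 8.04 with DMSO and 9.26, 9.76, 9.12 and 10.15 with FICZ, a rise of 1.17 ± 0.223 (adjusted p = 0.0269). The FICZ arrays ranged widely, from 9.12 to 10.15, and DMSO arrays 1 and 3 came closest to them. The mature miRNAs were not measured. Their RefSeq sequences at the locus (GRCh38.p14, chromosome 21, + strand) are shown for identity, with the seed, bases 2 to 8, in capitals.
hsa-miR-155-5p: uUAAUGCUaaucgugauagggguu
hsa-miR-155-3p: cUCCUACAuauuagcauuaaca

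Several genes for secreted growth factors, hormones and their carriers rose. STC2, a stanniocalcin glycoprotein hormone, read 8.33, 8.17, 8.78 and 8.43 with DMSO and 9.73, 9.23, 9.56 and 9.39 with FICZ, a rise of 1.05 ± 0.137 (adjusted p = 0.00179). IGFBP4, which binds insulin-like growth factors, read 8.19, 7.94, 7.87 and 7.64 and then 9.05, 8.81, 8.98 and 8.66, a rise of 0.97 ± 0.116 (adjusted p = 0.00116). EREG, a ligand of the EGF receptor, read 10.71, 10.28, 10.48 and 10.54 and then 11.66, 11.34, 11.39 and 11.25, a rise of 0.91 ± 0.125 (adjusted p = 0.00276). The groups of these genes did not overlap, and EREG was well above the filter in every array. VEGFA, the main angiogenic factor, rose by 0.52 ± 0.0801 (adjusted p = 0.00626) and FGF2 by 0.39 ± 0.0739 (adjusted p = 0.0276). With STC2 they were the 3 called rises among 15 tested hormones and growth factors, whose median was -0.011. KITLG, the ligand of KIT, was the lowest of the list at -0.50 ± 0.144 and was not called (adjusted p = 0.131). FGF2 was called in 6 of 12 fits with an array left out (0.0849 without FICZ 2 at most), and VEGFA in all 12. In the 8 fits that left out a DMSO or FICZ array, FGF2 was called in 2. Of 5 tested endothelial markers KDR, a VEGF receptor chosen after its values were seen, was called at 0.48 ± 0.0939 (adjusted p = 0.0293). KDR was called in 7 of 12 fits with an array left out (0.0868 without DMSO 3 at most), and in 3 of the 8 that left out a DMSO or FICZ array. The summed log2 signal of the 5 ran from 42.5 to 43.7 in DMSO arrays and from 42.9 to 44.2 in FICZ arrays, and its part in the VEGFA value was not tested. IGFBP1, a relative of IGFBP4 also chosen after its values were seen, rose by 0.90 ± 0.121 (adjusted p = 0.00234).

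ERK feedback genes gave 2 called rises among 17 tested, with a median of 0.0049. They were DUSP6, a phosphatase of ERK, at 0.47 ± 0.0933 (adjusted p = 0.0319) and IER3, an immediate early gene, at 0.48 ± 0.0975 (adjusted p = 0.0362). The Sprouty gene SPRY2 differed by 0.22 ± 0.0977 (adjusted p = 0.318) and SPRED3 by 0.25 ± 0.127 (adjusted p = 0.375). With 1 array left out, DUSP6 was called in 6 of 12 fits (0.104 without DMSO 3 at most) and IER3 in 3 (0.114 without DMSO 4). Each was called in 2 of the 8 fits that left out a DMSO or FICZ array.

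THBS1 and MMP1, which act on the extracellular matrix, rose. THBS1, the matricellular protein thrombospondin 1, read 8.70, 7.87, 8.74 and 8.52 with DMSO and 9.73, 9.07, 9.95 and 9.51 with FICZ, a rise of 1.11 ± 0.236 that passed narrowly (adjusted p = 0.0459). DMSO 2 was low among its group and FICZ 2 low among its own. MMP1, the interstitial collagenase, read 7.03, 7.17, 7.53 and 7.61 and then 8.57, 8.26, 8.36 and 8.34, a rise of 1.05 ± 0.154 (adjusted p = 0.00459). Of 16 tested metalloproteinases and plasminogen activation genes, MMP1 and the tissue plasminogen activator PLAT (0.40 ± 0.0813, adjusted p = 0.037) were called, with a median of 0.053. MMP14 differed by 0.36 ± 0.109 (adjusted p = 0.154) and urokinase PLAU by 0.29 ± 0.12 (adjusted p = 0.291). Collagens, laminins and integrins gave 0 called rises and 1 called fall among 24 tested, with a median of 0.0028, and ITGA2 (0.38 ± 0.115), COL4A2 (0.36 ± 0.126) and COL4A5 (0.25 ± 0.111) were not called. PLAT was called in 3 of 12 fits with an array left out (0.116 without DMSO 4 at most), and in 2 of the 8 that left out a DMSO or FICZ array.

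Hypoxia-responsive genes gave 3 called rises and 0 called falls among 24 tested. Of the 24 differences 21 were positive (4470 of 10807 over all genes), with a median of 0.14. HK2, the hexokinase of the first step of glycolysis, read 9.10, 9.29, 9.53 and 9.22 with DMSO and 9.86, 9.60, 9.87 and 10.00 with FICZ, a rise of 0.55 ± 0.103 (adjusted p = 0.0242). SLC2A1, the glucose transporter GLUT1, rose by 0.51 ± 0.102 (adjusted p = 0.0336), and VEGFA was the third. NDRG1 differed by 0.39 ± 0.126 (adjusted p = 0.178). HK2 was the only call among 16 tested glycolysis enzymes, whose median was -0.027. GAPDH differed by -0.22 ± 0.0919, ALDOA by -0.16 ± 0.11 and ALDOC by 0.36 ± 0.267, none of them called. With an array left out HK2 was called in 7 of 12 fits (0.0809 without DMSO 4 at most) and SLC2A1 in 6 (0.115 without DMSO 4). In the 8 fits that left out a DMSO or FICZ array, HK2 was called in 3 and SLC2A1 in 2.

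ALDH1A3, which makes retinoic acid from retinaldehyde, was among the strong rises at high signal. It read 10.47, 10.37, 10.65 and 10.49 with DMSO and 11.39, 11.27, 11.46 and 11.22 with FICZ, a rise of 0.84 ± 0.103 (adjusted p = 0.00116). The aldo-keto reductase AKR7A2 went down, from 9.54, 9.37, 9.42 and 9.64 to 8.91, 9.04, 9.09 and 8.68, a fall of 0.56 ± 0.106 (adjusted p = 0.0253). These were the 2 calls among 11 tested members of the enzyme families, whose median was -0.083. ALDH1B1 (-0.40 ± 0.0964, adjusted p = 0.0711) and ALDH9A1 (-0.23 ± 0.0977, adjusted p = 0.301) were not called.

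KIAA1211L and ALMS1P were also among the 15 largest rises. KIAA1211L read 7.48, 7.34, 7.70 and 7.34 with DMSO and 8.32, 8.43, 8.07 and 9.18 with FICZ, a rise of 1.03 ± 0.187 (adjusted p = 0.0192) in which FICZ 4 was highest. ALMS1P, a pseudogene related to ALMS1 whose probes may read both, read 7.69, 7.60, 7.88 and 7.16 and then 8.39, 8.69, 8.51 and 8.69, a rise of 0.99 ± 0.203 (adjusted p = 0.037). Further down the ranking, and chosen after their values were seen, the long non-coding RNA LUCAT1 rose by 0.88 ± 0.149, the hair follicle keratin KRT75 by 0.88 ± 0.14, LACC1 by 0.86 ± 0.113, BEX1 by 0.84 ± 0.104, the ubiquitin ligase MARCH1 by 0.75 ± 0.109, the secretory chaperone SCG5 by 0.73 ± 0.0879, the lysyl oxidase relative LOXL3 by 0.72 ± 0.108 and the kinase JAK3 by 0.61 ± 0.102. Their adjusted p-values ran from 0.00116 for SCG5 to 0.0122 for LUCAT1. LUCAT1, KRT75, BEX1 and MARCH1 passed the filter through their FICZ arrays alone. These genes were thus bound to differ, and their p-values are no independent evidence of a rise. Of the 15 largest rises, 11 were called in all 12 fits that left out 1 array each. MIR155HG was called in 7 of the 12 (highest adjusted p 0.0877 without DMSO 4), THBS1 in 2 (0.116 without DMSO 4), KIAA1211L in 9 (0.0643 without DMSO 4) and ALMS1P in 3 (0.116 without DMSO 4). Of the 8 fits that left out a DMSO or FICZ array, MIR155HG was called in 3, THBS1 in 1, KIAA1211L in 5 and ALMS1P in 0.

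**Figure D2:**
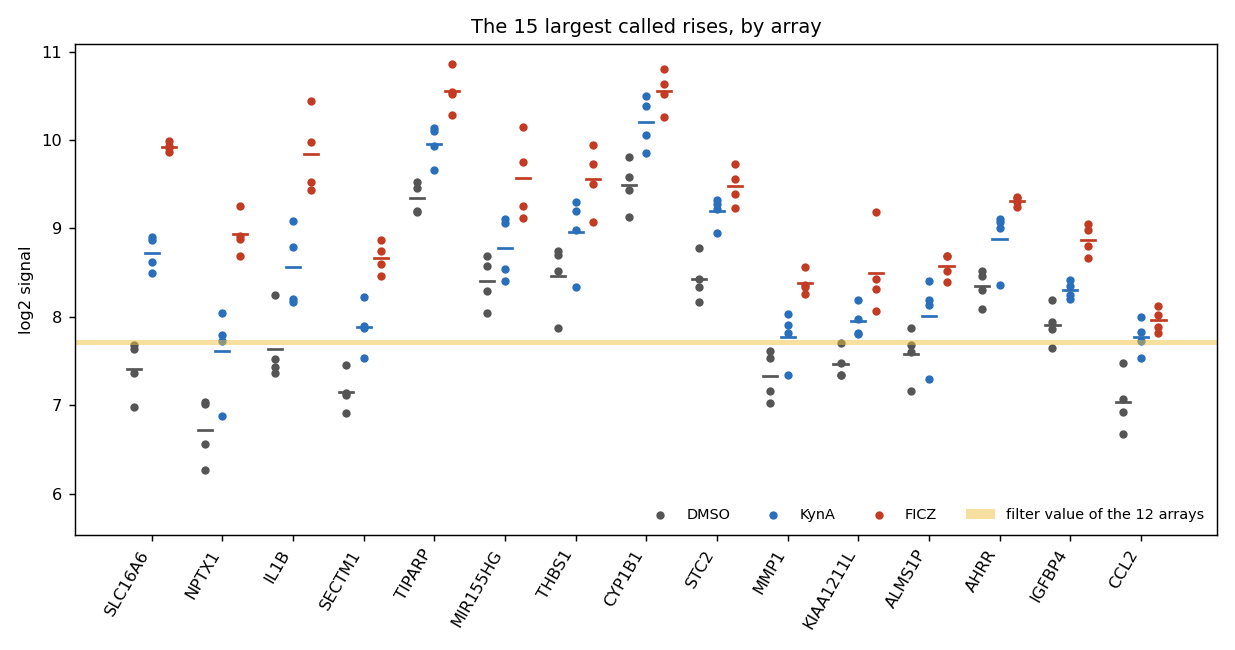
Log2 signal (vertical axis) of the 15 largest called rises in each of the 12 arrays, with 4 DMSO arrays in grey, 4 KynA arrays in blue and 4 FICZ arrays in red, short lines at the group means and a band at the filter values, 7.69 to 7.74. The red points lie above all grey points in each gene, and 8 of the 15 have a DMSO mean below the median filter value.

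The called falls were smaller, and the largest were in unrelated genes. COL6A5, a chain of collagen VI, read 7.97, 7.28, 8.12 and 7.99 with DMSO and 6.74, 7.13, 7.24 and 6.71 with FICZ, a fall of 0.88 ± 0.18 (adjusted p = 0.037), with DMSO 2 close to the FICZ arrays. It had 3 DMSO arrays, 1 KynA array and 0 FICZ arrays above the filter, just the 4 arrays asked. COL6A5 was thus tested only because of its DMSO arrays, and its p-value is no independent evidence of a fall. MEST, an imprinted gene expressed from the paternal copy, read 8.86, 8.84, 9.00 and 8.75 and then 8.13, 7.82, 8.32 and 7.86, a fall of 0.83 ± 0.119 (adjusted p = 0.0039). PLXNA2, a semaphorin receptor, read 8.55, 8.14, 8.46 and 8.18 and then 7.87, 7.60, 7.76 and 7.71, a fall of 0.60 ± 0.13 (adjusted p = 0.0475). POGK, a KRAB domain protein derived from a transposase, fell by 0.57 ± 0.106 (adjusted p = 0.0242). CCT6P3, a pseudogene related to the chaperonin subunit CCT6 and open to cross-hybridisation with it, fell by 0.81 ± 0.167 (adjusted p = 0.0388). MEST remained in all 12 fits with an array left out, at most 0.0184 without DMSO 3. COL6A5 was called in 4 of them (0.116 without DMSO 4 at most), PLXNA2 in 1 (0.137 without DMSO 1), POGK in 7 (0.0868 without DMSO 3), CCT6P3 in 3 (0.116 without DMSO 4) and AKR7A2 in 7 (0.0853 without DMSO 4). Over the 8 fits that left out a DMSO or FICZ array, the counts of these 5 genes were 2, 0, 3, 1 and 3.

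The BMP group held 1 called rise and 1 called fall. GREM1, a secreted antagonist of BMP, had log2 signals of 11.03, 10.96, 11.12 and 11.19 with DMSO and 11.91, 11.85, 11.79 and 11.91 with FICZ, a rise of 0.79 ± 0.0875 (adjusted p = 0.000659). ID3, a dominant-negative helix-loop-helix protein and a classic BMP target, read 8.25, 8.20, 8.28 and 8.77 and then 7.87, 7.54, 7.65 and 7.68, a fall of 0.69 ± 0.117 (adjusted p = 0.0122). DMSO 4 was the high one among the DMSO arrays of ID3, and FICZ values were all lower than every DMSO value. The relatives ID1 (-0.51 ± 0.129, adjusted p = 0.0902) and ID2 (-0.41 ± 0.0996, adjusted p = 0.0711) were not called. Among 10 tested BMP and ID genes, 1 rose and 1 fell, with a median of -0.26.

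Chromatin genes were among the falls. HMGB2, a DNA-bending protein abundant in dividing cells, read 10.32, 10.17, 10.43 and 10.13 with DMSO and 9.77, 9.84, 9.74 and 9.51 with FICZ, a fall of 0.55 ± 0.0913 (adjusted p = 0.0117). HIST1H1B, a linker histone, read 9.25, 8.93, 9.07 and 8.98 and then 8.66, 8.60, 8.47 and 8.38, a fall of 0.53 ± 0.0917 (adjusted p = 0.0133). HIST1H1A, another linker histone, read 10.94, 10.85, 11.02 and 11.12 and then 10.55, 10.49, 10.52 and 10.53, a fall of 0.46 ± 0.0788 (adjusted p = 0.0124). Of 12 tested histone genes, of 24 listed, 2 were called lower and 0 higher. All 12 differences were negative (6337 of 10807 over all genes), with a median of -0.28. HIST1H1D (-0.34 ± 0.097, adjusted p = 0.131) and H2AFX (-0.31 ± 0.096, adjusted p = 0.161) were not called, and histone genes are near-copies whose probes can cross-hybridise. Of 9 tested HMG proteins HMGB2 was the only call, with HMGXB4 at -0.25 ± 0.122, HMGN5 at -0.14 ± 0.154 and HMGA1 at -0.10 ± 0.0949.

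In the cell cycle lists, none of 31 tested G2/M genes and none of 34 tested G1/S genes was called by limma, yet every one of the 65 differences was negative, as were 6337 of the differences of all 10807 genes. The medians were -0.26 and -0.23 against -0.031 over all genes. Closest to a call in the first list were TPX2 (-0.34 ± 0.0763, adjusted p = 0.0581), BIRC5 (-0.34 ± 0.0798, adjusted p = 0.0629), NDC80 (-0.39 ± 0.0982, adjusted p = 0.0836) and CDC20 (-0.31 ± 0.0791, adjusted p = 0.0888), which serve the spindle, the kinetochore and the anaphase checkpoint. In the second list they were the clamp loader subunits RFC3 (-0.32 ± 0.0714, adjusted p = 0.0548) and RFC4 (-0.41 ± 0.0969, adjusted p = 0.0645), the helicase factor GINS2 (-0.46 ± 0.119, adjusted p = 0.0917) and the licensing factor CDT1 (-0.34 ± 0.091, adjusted p = 0.109). At an unadjusted p under 0.05 the G2/M list held 21 genes and the G1/S list 18, against 1572 (14.5%) of all 10807 genes. DIAPH3, a formin that nucleates actin and is in no cell cycle list, read 8.87, 8.63, 8.64 and 8.83 and then 8.47, 8.05, 8.17 and 8.16, a fall of 0.53 ± 0.099 (adjusted p = 0.0242). WDR62, a spindle pole protein, read 9.19, 8.82, 9.25 and 9.14 and then 8.58, 8.58, 8.63 and 8.52, a fall of 0.52 ± 0.0941 (adjusted p = 0.0192). RCC1, the nucleotide exchange factor of RAN on chromatin, fell by 0.48 ± 0.0915 (adjusted p = 0.0252). Called falls in no list, and chosen after their values were seen, were also the kinesin KIF15 (-0.41 ± 0.0831, adjusted p = 0.0354), the spindle protein CKAP2 (-0.41 ± 0.0874, adjusted p = 0.0448) and INCENP of the chromosomal passenger complex (-0.37 ± 0.08, adjusted p = 0.047). They were called in 3, 2 and 1 of 12 fits with an array left out, with 0.116 without DMSO 4, 0.133 without DMSO 4 and 0.13 without DMSO 4 at most. Of the 8 fits that left out a DMSO or FICZ array, KIF15 was called in 1, and CKAP2 and INCENP in 0. Arrays cannot tell fewer cells in a phase from less RNA per cell.

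Genes of RNA handling completed the 15 largest falls. LYAR, a nucleolar protein, read 9.73, 9.47, 9.48 and 9.56 with DMSO and 9.15, 9.02, 9.11 and 8.94 with FICZ, a fall of 0.50 ± 0.0875 (adjusted p = 0.0142). ZNHIT6, an assembly factor of box C/D small nucleolar RNPs, fell by 0.50 ± 0.0891 (adjusted p = 0.0179), and DCP1B, an activator of mRNA decapping, by 0.53 ± 0.112 (adjusted p = 0.0441). Of 19 tested RNA decay and decapping genes DCP1B was the only call, 16 of the 19 differences were negative (6337 of 10807 over all genes), and their median was -0.14. ZFP36L2 (-0.37 ± 0.0941, adjusted p = 0.0941), PATL1 (-0.26 ± 0.0741, adjusted p = 0.123) and LSM4 (-0.22 ± 0.0914, adjusted p = 0.294) came next. With an array left out, HMGB2, HIST1H1A, HIST1H1B and ID3 were called in all 12 fits. LYAR and ZNHIT6 were called in 9 and 9 of 12, DIAPH3 and RCC1 in 8 and 8, WDR62 in 7 and DCP1B in 2, with highest adjusted p-values from 0.053 without FICZ 4 for LYAR to 0.116 without DMSO 4 for DCP1B. Over the 8 fits that left out a DMSO or FICZ array, the counts of these 6 genes were 5, 5, 4, 4, 3 and 1.

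**Figure D3:**
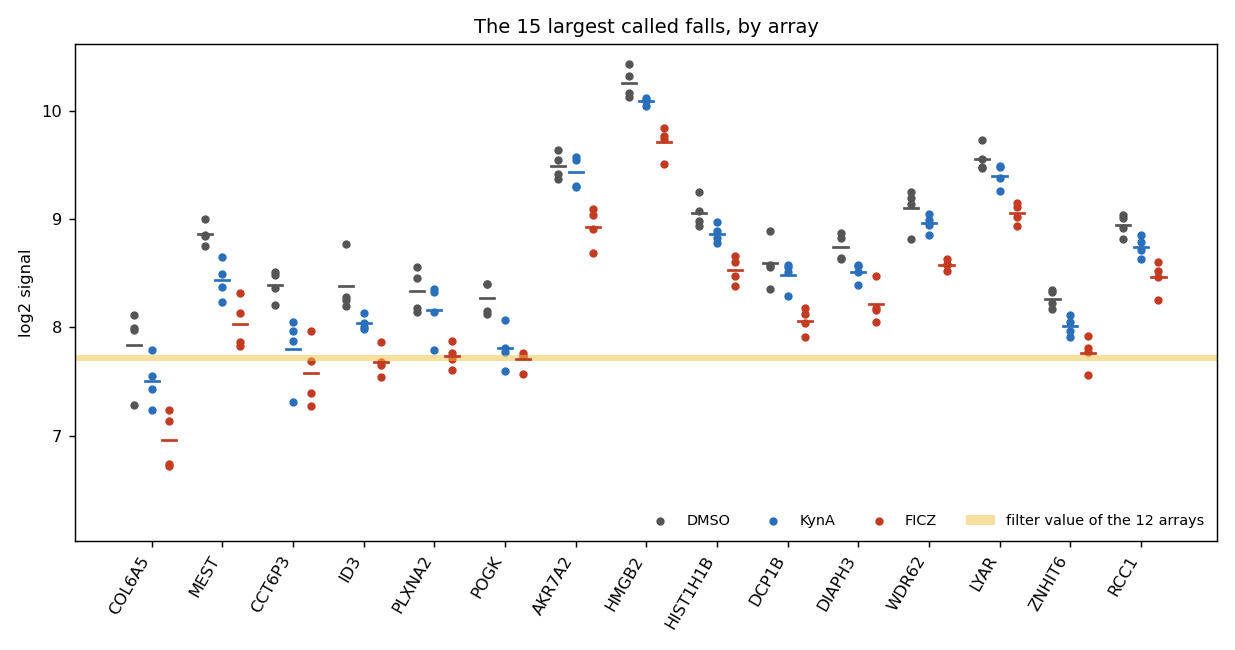
Log2 signal (vertical axis) of the 15 largest called falls in each of the 12 arrays, drawn as for the rises. The FICZ arrays in red lie below all DMSO arrays in grey, by much less than in the largest rises, and the FICZ means of 4 of all 27 called falls lie below the median filter value of 7.73.

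Across the 31 pathway lists, 20 held at least 1 called gene and 11 held none, and 28 of the 92 called genes were in a list, 19 higher and 9 lower. Most called genes, 64 of 92, were thus in no list. Calls described above were also the only ones in smaller lists. These were STC2 among 18 tested ATF4 stress genes (median 0.033), EREG among 4 EGF-family ligands (0.064), THBS1 among 12 matricellular proteins (0.016), PLXNA2 among 21 axon guidance genes (0.012) and MEST among 10 imprinted genes (0.016). Limma called 0 of 16 tested NRF2 targets (median -0.020), 0 of 15 p53 targets and CDK inhibitors (-0.038), 0 of 18 interferon and antigen presentation genes (-0.029) and 0 of 17 genes of cholesterol and fatty acid synthesis (-0.062). At an unadjusted p under 0.05 these lists held 1, 0, 2 and 1 genes. It also called 0 of 24 genes of the mitochondrial respiratory chain (-0.039), 0 of 10 of prostaglandin synthesis (-0.014) and 0 of 18 cytosolic ribosomal proteins (-0.086), with 1, 2 and 3 genes at an unadjusted p under 0.05. No list test was made, so no list is called different from other genes. The lists and their members were chosen with earlier results of these data known. Their counts and medians are thus no independent evidence of a functional grouping.

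**Figure D4:**
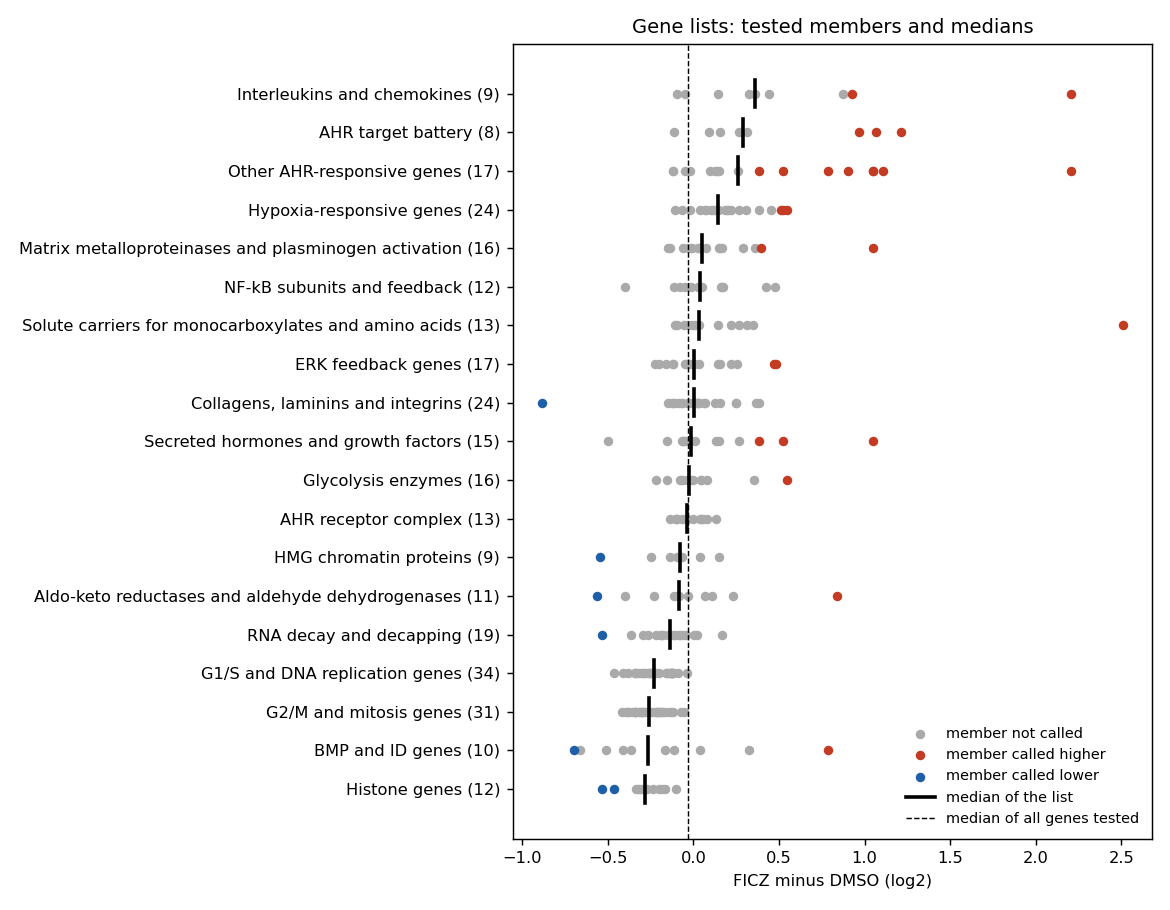
Each point is a tested member of the list named at the left (number tested in brackets), at its FICZ minus DMSO difference in log2 on the horizontal axis, with called rises in red, called falls in blue, a bar at the median of the list and a dashed line at the median of all genes tested, -0.031. The cytokine list, the AHR target battery and the other AHR-responsive genes have medians between 0.26 and 0.36, the AHR receptor complex has -0.035, and the histone, G2/M and G1/S lists lie wholly below 0.

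Precision varied with the level of the signal. With the tested genes split into 4 equal classes by mean signal over the 8 arrays, the median SE of a difference was 0.125 in the lowest class, then 0.112, 0.102 and 0.0907 in the highest. Called rises numbered 17, 16, 10 and 22 from the lowest to the highest class (0.629%, 0.592%, 0.370% and 0.814% of genes), and called falls numbered 6, 6, 11 and 4. Levels of different genes are not comparable as amounts of RNA on these arrays. The median difference was -0.012 in the lowest class and -0.049 in the highest. Of the called genes, 25 rises and 9 falls had both group means above the median level of genes tested, 8.67. The 5 largest of those rises were TIPARP, CYP1B1, EREG, ALDH1A3 and GREM1, and the largest falls were AKR7A2, HMGB2, LYAR and HIST1H1A. At the other end, the DMSO mean of 20 called rises lay below the median filter value of 7.73, and 6 of the rises had neither a DMSO nor a KynA array above the filter.

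Large differences without a call had SEs of 0.27 to 0.56, against a median of 0.106 over all genes. Of 18 tested genes past 2-fold, 13 were higher and 5 lower, and the 5 lower ones were all uncalled. They are named here because of their values. GAS2, a growth arrest gene that binds actin filaments, read 7.58, 8.11, 7.44 and 8.47 with DMSO and 7.25, 7.27, 6.37 and 6.04 with FICZ, a difference of -1.17 ± 0.27 (adjusted p = 0.0584). RIMS2, a presynaptic scaffold, differed by -1.14 ± 0.366 (adjusted p = 0.174), the dopamine receptor DRD3 by -1.05 ± 0.552 (adjusted p = 0.398), the exchange factor RASGRP3 by -1.05 ± 0.445 (adjusted p = 0.299) and the secreted SCUBE2 by -1.01 ± 0.446 (adjusted p = 0.313). FICZ 4 was the lowest array in all 5. The 2 uncalled rises were CASZ1, a zinc finger factor, at 1.26 ± 0.56 (adjusted p = 0.318) and the non-coding LINC00113 at 1.08 ± 0.378 (adjusted p = 0.209), with FICZ 4 highest in both.

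Equal replicate numbers did not clearly pair the arrays. Deviations from the group mean, over all genes tested, correlated between DMSO and FICZ arrays of the same number at 0.130 for number 1, 0.213 for number 2, 0.157 for number 3 and 0.0200 for number 4, so the fourth fell short of the 0.1 asked of every pair, and no label says what a number stands for. Between DMSO and KynA arrays, numbers 1 to 4 gave -0.0342, 0.183, 0.161 and -0.0451. Between FICZ and KynA arrays they gave 0.0644, 0.155, 0.0639 and -0.133, so further pairs also fell short. All 92 called genes had 4 same-number differences of 1 sign, as did 2701 of all 10807 tested. For the 92 this was certain under any pairing, because their FICZ and DMSO arrays did not overlap, so it says nothing about pairing. With the number as a fixed term, 124 genes were called (1.15%), 86 higher and 38 lower. Of the 92, 82 were among them, 42 genes were added and 10 were not called. A random block gave 135 calls that held all 92, at an estimated correlation of 0.0685.

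For some genes the replicate term changed the adjusted p by a large factor. THBS1 had same-number differences of 0.99 to 1.21, against DMSO signals that spread over 7.87 to 8.74, and its adjusted p went from 0.0459 to 0.000173. IL1B had same-number differences of 2.07 to 2.45, and its adjusted p went from 0.000949 to 1.3e-06. For CSF3, not called without the term, it went from 0.105 to 0.0048, with same-number differences of 0.44 to 1.06. The term added 42 called genes, 26 higher and 16 lower. With CSF3, the 8 smallest adjusted p-values among them belonged to PLEKHG4B (0.00632), NBEA (0.00747), IGFBP3 (0.0077), ITGA11 (0.00869), PLXNA4 (0.0138), the interleukin 1 receptor antagonist IL1RN (0.0185) and the cytokine LIF (0.02). With a random block, 14 of the 42 were called, and the adjusted p was over the threshold for CSF3 (0.0671), IGFBP3 (0.0731), ITGA11 (0.0835), PLXNA4 (0.172) and LIF (0.0831). With the fixed term on 8 arrays 7 of the 42 were called, and NBEA (0.0551), ITGA11 (0.0601) and LIF (0.0868) were not. IL1RN had missed the threshold without the term at 0.0509. ID1 (0.0286), TNFAIP2 (0.0354) and NDRG1 (0.0247), given above as not called, were called with the fixed term, ID1 and TNFAIP2 as lower and NDRG1 as higher. Their adjusted p-values with a random block were 0.0590 for ID1, 0.0554 for TNFAIP2 and 0.126 for NDRG1.

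Going the other way, ARL6IP1 had an adjusted p of 0.0766 with the term, EIF2B3 0.0737, INCENP 0.065, ALMS1P 0.0636 and TFPI2 0.0636, the largest 5 among called genes. Without the term these stood at 0.0487, 0.045, 0.047, 0.037 and 0.046. MIR155HG (0.0515), DCP1B (0.0613) and CCT6P3 (0.0589) of the named genes were also not called with it, and the same-number differences of MIR155HG ran from 0.44 to 2.11. With only the 8 arrays of the comparison and the fixed term, 3 residual degrees of freedom remained and 38 genes were called, 31 of them among the 92. Those 31, 28 higher and 3 lower, were called in each of the fits without the term, with a fixed term, with a random block and with a fixed term on 8 arrays. The 3 lower ones were MEST, PLXNA2 and POGK.

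**Figure D5:**
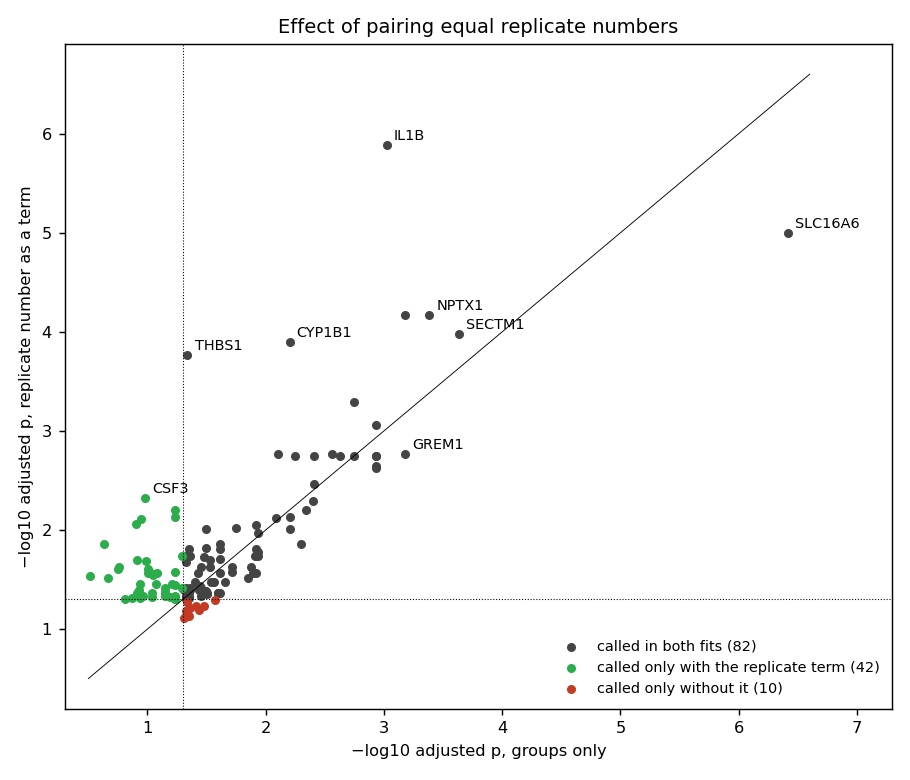
Adjusted p-values on a −log10 scale for the 134 genes called in either fit, without (horizontal axis) and with (vertical axis) the replicate number as a fixed term over 12 arrays, with dotted lines at 0.05 and a solid line of equality. IL1B, THBS1 and CYP1B1 lie far above the line, SLC16A6 lies below it, and the 10 red points just under the horizontal dotted line are the calls not made with the term.

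The KynA arrays were compared with the same DMSO arrays and carried a different dose, so values are set side by side only. KynA minus DMSO was 1.31 ± 0.139 for SLC16A6, 0.61 ± 0.135 for TIPARP and 0.47 ± 0.0875 for GREM1. In the limma fit the adjusted p of KynA against DMSO was 0.00200 for SLC16A6, 0.469 for TIPARP and 0.284 for GREM1, so of these 3 SLC16A6 alone was called. KynA minus DMSO was 0.10 ± 0.149 for LUCAT1, 0.07 ± 0.14 for KRT75 and 0.06 ± 0.109 for MARCH1, and none of these was called. LUCAT1, KRT75 and MARCH1 had no DMSO and no KynA array above the filter, so these differences lie between values under it. FICZ against KynA gave adjusted p-values of 0.142 for LUCAT1, 0.117 for KRT75 and 0.0905 for MARCH1, so none of these 3, which were chosen after their values were seen, was shown to differ between the ligands. SLC16A6 was called in that limma comparison, at FICZ minus KynA of 1.20 ± 0.139 (adjusted p = 0.00533). TIPARP (adjusted p = 0.271) and GREM1 (0.380) were not.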

How the data were processed

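The deposited values are log2 signals, 1 per transcript cluster and array, which the authors obtained by RMA through the oligo package, per the submitters' processing notes. The sources used here give no versions. Low transcripts are missing from the deposited log2 values, by a rule likewise not stated. The labels' protocols describe total RNA labelled with biotin. Symbols are printed as the platform annotation gives them, and for promoters older symbols were matched through RefSeq synonyms. Of genes with several clusters, 45 in all, the cluster with the highest mean was kept.

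Group means were fitted with limma on all 12 arrays (9 residual and 5.19 prior degrees of freedom), so KynA arrays add to the estimate of the spread. Tests were two-sided with Benjamini-Hochberg adjustment over 10807 genes. Filter values were 7.69 to 7.74. Precision is limited by the number of arrays (median SE 0.106).

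Named genes were the 15 largest called rises and falls with all 4 FICZ arrays beyond the DMSO mean, the 5 largest of each with both means above the median level, 8 AHR genes, up to 4 members of each list described with the smallest p, and the 8 genes gained and 5 with the largest adjusted p under the replicate term. Of these, 1 gene is not reported here. Any other gene is marked as picked from its values. The members and lists were chosen with earlier results of these data known.

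Alternatives were the replicate block, leaving out each array, only 8 arrays, array weights, robust eBayes with a trend, median centring, cyclic loess, the mean over clusters, and the filter removed or set at the 50th percentile. Pairing was checked by the correlation of deviations from the group means, and equal numbers were not taken as pairs. The fit was tested on simulated data. Promoters and miRNAs came from RefSeq, where 8841 of 10807 genes tested had a promoter. Tools were R 4.3.3, limma 3.58.1 and version 1.17.8 of data.table.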

Additional observations from a re-analysis of the deposited data

Results flagged for a closer look

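In 11 of the 240 groups of 4 arrays examined (120 named genes in 2 groups), 1 array lay so far from the other 3 that its gap, as a share of the range, exceeded Dixon's 95% critical value for 4 samples. Chance flags about 1 in 20 groups. Among called rises these were TMEM119, at 8.74 in FICZ 4 against 8.28 to 8.30 in the others, and JAK3, at 8.48 in FICZ 4 against 8.14 to 8.17. SLC2A1 read 9.67 in DMSO 2 against 9.41 to 9.45, and KDR read 8.87 in FICZ 3 against 8.55 to 8.61. Without the array concerned the adjusted p was 0.0761 for TMEM119, 0.0311 for JAK3, 0.027 for SLC2A1 and 0.0525 for KDR. Among called falls ARL6IP1 read 11.86 in DMSO 4 against 11.75 to 11.76, POGK read 7.57 in FICZ 1 against 7.74 to 7.77, ID3 read 8.77 in DMSO 4 against 8.20 to 8.28, and COL6A5 read 7.28 in DMSO 2 against 7.97 to 8.12. Without that array the adjusted p was 0.146 for ARL6IP1, 0.0593 for POGK, 0.0136 for ID3 and 0.00537 for COL6A5. Among genes not called CSF3 read 11.45 in FICZ 2 against 10.67 to 10.74, TPX2 read 11.41 in DMSO 1 against 11.53 to 11.54, and HIST1H1D read 9.02 in FICZ 4 against 9.35 to 9.37.

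Outside the genes with 1 symbol, 6 of 1494 tested transcript clusters with several or no symbols passed in FICZ against DMSO, all of them higher. The largest was a cluster that the annotation pairs with 2 symbols, so it is not named, at 1.88 ± 0.144 (SE, n = 4 arrays per group; limma adjusted p = 7.3e-06). Its signals were 6.95, 6.79, 7.10 and 7.15 with DMSO and 8.80, 8.97, 8.99 and 8.76 with FICZ. The other 5 had no symbol and rose by 0.51 to 1.09.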

How the results depend on the processing

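The 92 calls, 65 higher and 27 lower, depended on how the spread was estimated. EBayes with trend and robust gave 140 calls, 60 of them lower. Only the 8 arrays of the comparison gave 43, with 36 higher and 7 lower. No filter left 16 lower calls and a filter at the 50th percentile 49. Leaving out 1 array gave from 42 calls (without DMSO 1 or FICZ 4) to 103 (without FICZ 3), with 34 to 69 higher and 6 to 34 lower, and 34 genes, 29 higher and 5 lower, stayed called in all 12 such fits. Median centring gave 92 calls, 91 of them shared, cyclic loess 91 with 85 shared, and array weights 76 with 75 shared. The median of all genes moved to -0.032 with centring and -0.0047 with loess. No named gene changed sign with a call under any alternative.

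The replicate number as a fixed block gave 124 calls, 86 higher and 38 lower, and as a random block 135, of which 56 were lower. The fixed replicate block on only the 8 arrays gave 38 calls, 35 higher and 3 lower. Same-numbered DMSO and FICZ arrays correlated best with their own number for numbers 1 to 3 and not for number 4, a hint from the data and not from the design. It did not hold throughout with KynA arrays, where FICZ 3 correlated at 0.0639 with KynA 3 and at 0.257 with KynA 4.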
